A study of Mus musculus with 10 samples.

Results

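The genes described here are long intergenic noncoding RNA (lincRNA) genes that were expressed in E14, a mouse embryonic stem cell line. A gene was a member when GENCODE vM21 gave its type as lincRNA, its deposited length was at least 300 nt and its mean TPM over 3 RNA-seq replicates was at least 1. TPM is a transcript abundance that takes effective length into account and sums to the same total in every library. A set of 12 well-known noncoding genes (Malat1, Neat1, Tug1, Miat, Firre, Oip5os1, Lncenc1, Tunar, Meg3, Rian, Mirg and H19) was left out by the rule. Oip5os1 is listed in GENCODE vM21 as 1700020I14Rik and was recognised through its RefSeq synonym. The rule gave 115 members of 5614 lincRNA genes and of 55487 genes in the tables. Members were thus chosen by measured values, the mean TPM and the deposited length, so their levels are a description and were not tested.

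A lincRNA gene is by definition largely separate from protein-coding genes, although annotations hold exceptions, and it is usually transcribed by RNA polymerase II, spliced and polyadenylated. Some of these RNAs act in trans by binding proteins or other RNAs, some act on a neighbouring gene through their transcription, and some serve mainly as precursors of small RNAs held in their introns or exons. Many are restricted to few cell types, and in embryonic stem cells several have been linked to the maintenance of, or exit from, pluripotency.

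The series mapped R-loops, structures in which RNA pairs with a DNA strand, and measured RNA in the same cells. It holds 10 samples in 6 groups: BisMapR (2 samples), MapR (2 samples), BisMapR_RNaseA (1 sample), MapR_GST-MNase (1 sample), MapR_NBSS (1 sample) and RNASeq (3 samples). Not analysed here are the 7 samples of R-loop DNA. All groups were unperturbed cells grown in medium with 15% serum, LIF, 3 µM of a GSK inhibitor and 1 µM of a MEK1/2 inhibitor. Every value below comes from the 3 RNASeq replicates. No label says whether they came from separate cultures, so their spread may be technical. Replicates 1, 2 and 3 summed to 11420425, 6467405 and 5787357 estimated counts. Divided by the library total, 3 counts came to 0.263, 0.464 and 0.518 CPM (counts scaled to the total without regard to length), which is the floor set by counting error only. The cell type label was checked on marker genes: 10 of 10 pluripotency genes reached a mean TPM of 1 (6.05 to 554). Of 7 feeder fibroblast genes, Thy1 alone did so, at 2.50, and Col3a1, Postn, Lum and Dcn were at 0. Of 10 genes of differentiated lineages Krt8 alone did so, at 1.05.

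Most annotated lincRNA genes were silent at this depth. Of the 5614, 4327 had no counts in any replicate, 1160 were counted at a mean below 1 TPM, and 127 were at or above it. Of those 127, 6 were shorter than 300 nt and 6 were among the genes left out by name. The 115 members were spread over 20 chromosomes, with 15 on chromosome 13, 11 on chromosome 12, 11 on chromosome 5 and 1, Gm27000, on chromosome X. Most had no descriptive name: 60 carried a symbol of the form Gm and a number, 27 a Rik symbol, and 28 another symbol.

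The limit of 1 TPM fell within a dense range of values. Just inside it was Eprn (Ephemeron, an RNA described in the exit from naive pluripotency), with 1.17, 0.95 and 0.90 TPM in replicates 1, 2 and 3. Gm47430 and Gm47469 followed at means of 1.02 and 1.03 TPM. Just outside were 9430037G07Rik at 0.997, A730063M14Rik at 0.993 and Gm27028 at 0.967 TPM. At the length limit the shortest members were Gm48223 (306 nt), Gm13166 (322 nt) and Gm7125 (329 nt), and the longest lincRNA records under it that reached 1 TPM were Rmrp (281 nt), a second Gm10479 record (241 nt) and Bc1 (168 nt). The number of members depended on the scale. It was 216 when TPM was rescaled without genes of effective length under 100 nt, 233 at a CPM of at least 1, and 190 at a mean TPM of at least 0.5. A TPM of at least 1 in every replicate was reached by 86 of the 115, and 18 had fewer than 10 counts in some replicate.

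The members were low and unequal in level. In bulk RNA, fewer expressing cells and less RNA per cell cannot be told apart. The members' median was 2.52 TPM, beside 5.73 TPM over the 9683 protein-coding genes with a mean TPM of at least 1. Of the members, 44 lay between 1 and 2 TPM, 42 between 2 and 5, 21 between 5 and 10, and 8 above 10. Summed over the members, TPM was 646, 611 and 473 in replicates 1, 2 and 3, and the summed counts were 0.154%, 0.154% and 0.133% of the libraries. The genes left out by name together held 711 ± 184 TPM (SD, n = 3), beside 576 ± 91.6 TPM (SD, n = 3) for all 115 members. These totals cover different gene types. Among the genes left out, GENCODE vM21 types Rian (189 TPM) and Firre (10.9 TPM) as processed transcripts and Tug1 (22.5 TPM) as antisense. The 10 most abundant members held 43.7% of the members' TPM, and 29.99% when Gm10076 was left out.

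**Figure D1:**
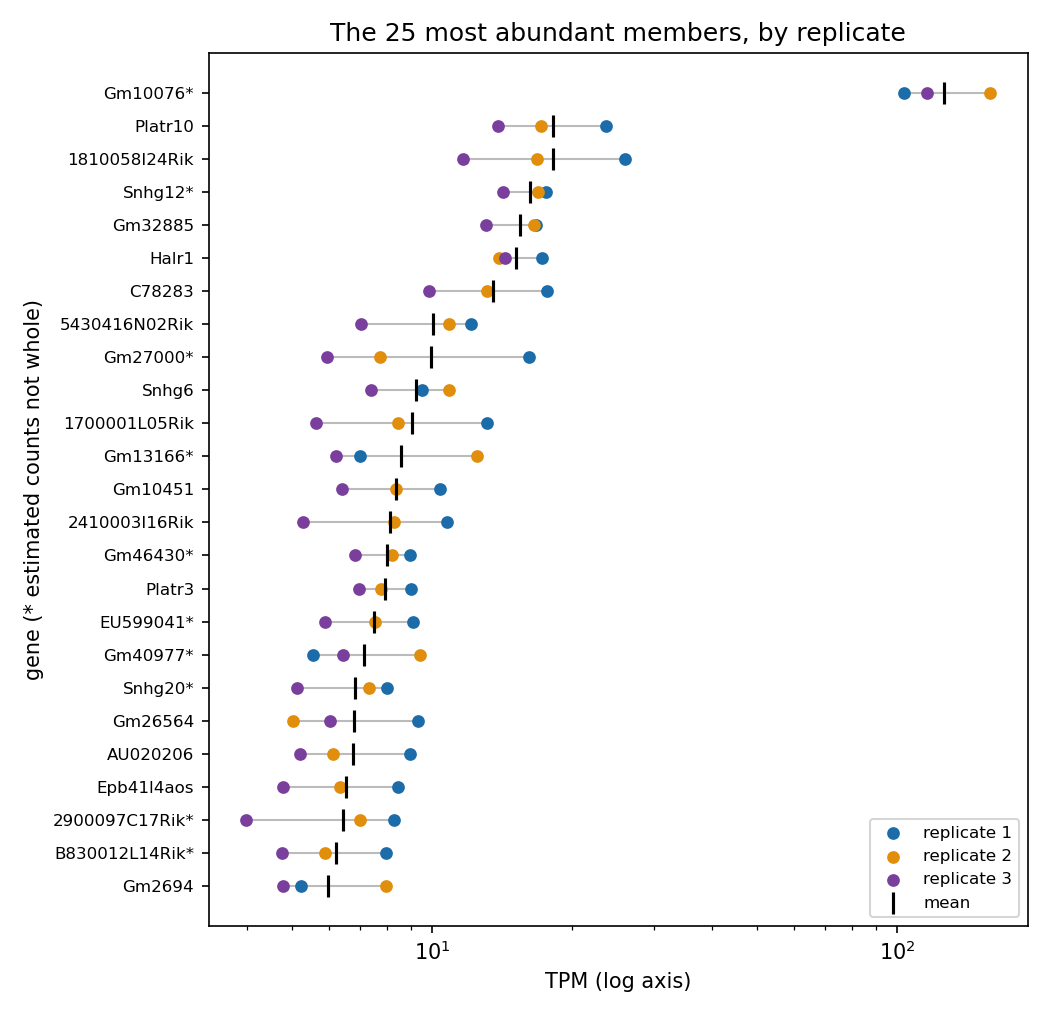
TPM of the 25 most abundant members on a log axis, with 1 point per replicate and a bar at the mean; an asterisk marks estimated counts that are not whole. Gm10076 stands apart above 100 TPM, and the next 6 members lie between 9.87 and 26.01 TPM in every replicate.

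Gm10076 (chr14:105681828-105682211, plus strand) was the most abundant member, with 103, 158 and 116 TPM in replicates 1, 2 and 3. No other member exceeded 26.01 TPM in any replicate. RefSeq types it as a pseudogene, and over its whole 383 nt it matched Rpl41, the gene of a small ribosomal protein, at 99.5% identity. Rpl41 itself had a mean of 888 TPM, and the counts of Gm10076 (688.08, 709.88 and 549.67) were not whole numbers, the mark of reads divided between genes. How much of its level came from its own locus was not tested.

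Platr10 was next. Its symbol stands for a pluripotency-associated transcript, and it had 23.7, 17.1 and 13.8 TPM, or 18.2 ± 5.01 (SD, n = 3). 1810058I24Rik, which RefSeq types as protein-coding, had 26.01, 16.8 and 11.7 TPM. Both were highest in replicate 1 and lowest in replicate 3, and the range of Platr10 lay inside that of 1810058I24Rik. Snhg12, the host of several small nucleolar RNAs (snoRNAs), followed with 17.5, 16.9 and 14.2 TPM. Gm32885 had 16.7, 16.6 and 13.1 TPM. Halr1 had 17.2, 13.9 and 14.4 TPM. These means differed by less than the spread of Platr10 over the replicates. Compared within replicates, Platr10 and Snhg12 were each above Gm32885 in every replicate. All other pairs of these genes changed order between replicates, so no full order can be read. C78283 (13.6 ± 3.90 TPM), 5430416N02Rik (10.03 ± 2.66 TPM), Gm27000 (9.96 ± 5.47 TPM) and Snhg6 (9.26 ± 1.76 TPM; SD, n = 3 for each) completed the 10 most abundant.

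The start regions of these abundant members differed in the density of CpG, the dinucleotide that is depleted from most of the genome and kept in CpG islands. Below are the windows from 250 bases before to 50 after the start (GRCm38.p6, 5′ to 3′ on the gene's strand), with each CpG in capitals, for a member with few CpGs, one in between and one with many. The window of Platr10 is chr3:75655682-75655981 (minus strand), that of Halr1 chr6:52102699-52102998 (plus strand) and that of 5430416N02Rik chr5:100429486-100429785 (minus strand).
Platr10: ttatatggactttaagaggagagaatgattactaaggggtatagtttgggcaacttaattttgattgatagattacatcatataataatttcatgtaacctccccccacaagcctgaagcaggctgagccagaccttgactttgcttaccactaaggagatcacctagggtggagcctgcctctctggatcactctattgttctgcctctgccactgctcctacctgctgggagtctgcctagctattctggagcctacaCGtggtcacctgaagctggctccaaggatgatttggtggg
Halr1: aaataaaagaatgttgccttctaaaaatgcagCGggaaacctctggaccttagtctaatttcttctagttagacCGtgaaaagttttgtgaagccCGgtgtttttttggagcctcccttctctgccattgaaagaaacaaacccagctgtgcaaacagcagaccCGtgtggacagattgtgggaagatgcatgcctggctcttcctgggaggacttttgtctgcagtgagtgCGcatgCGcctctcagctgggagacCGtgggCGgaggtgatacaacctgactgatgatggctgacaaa
5430416N02Rik: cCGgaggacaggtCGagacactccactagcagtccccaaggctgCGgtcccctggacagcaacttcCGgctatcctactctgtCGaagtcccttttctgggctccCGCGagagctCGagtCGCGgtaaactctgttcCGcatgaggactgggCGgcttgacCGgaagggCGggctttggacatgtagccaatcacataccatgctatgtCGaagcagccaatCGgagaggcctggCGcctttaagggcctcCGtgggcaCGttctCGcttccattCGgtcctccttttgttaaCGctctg
The CpG count was 1 for Platr10, 8 for Halr1 and 22 for 5430416N02Rik. The observed/expected CpG ratio, which corrects for base composition, was 0.060, 0.45 and 0.83. Repeats covered 54.7%, 8% and 0% of these windows. Platr10 and 5430416N02Rik were thus among the 10 most abundant members with start regions of opposite kinds.

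Over all members the median CpG ratio lay between that of the other lincRNA genes and that of expressed protein-coding genes. Its median was 0.38 in the members, 0.29 in the 1149 other lincRNA genes of at least 300 nt with counts, 0.19 in the 4086 without, and 0.77 in protein-coding genes with a mean TPM of at least 1. A ratio of at least 0.6 is 1 of the usual marks of a CpG island. It was reached by 31 of 115 members (27.0%) and by 72.3% of the protein-coding genes. Among the other lincRNA genes it was reached by 19.5% of those with counts and 5.53% of those without. No limit was set on GC content, and the 31 include Gm10076 at 38.3% GC and Snhg12 at 47.7% GC. At the other end, 33 members (28.7%) had a ratio of at most 0.2, and 6 had no CpG in the window, Platr7 and 2400006E01Rik among them. Across the 115 members the ratio and the mean TPM were unrelated in rank (Spearman's rho of -0.0027, a description across genes from the same libraries). The rule leaves out levels under 1 TPM, which narrows the range compared. Over lincRNA genes with counts rho was 0.13. The 3 highest ratios belonged to 5031425E22Rik (1.05), Gm36445 (1.03) and Tmem250-ps (1.03), which had 1.04, 1.30 and 3.22 TPM.

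**Figure D2:**
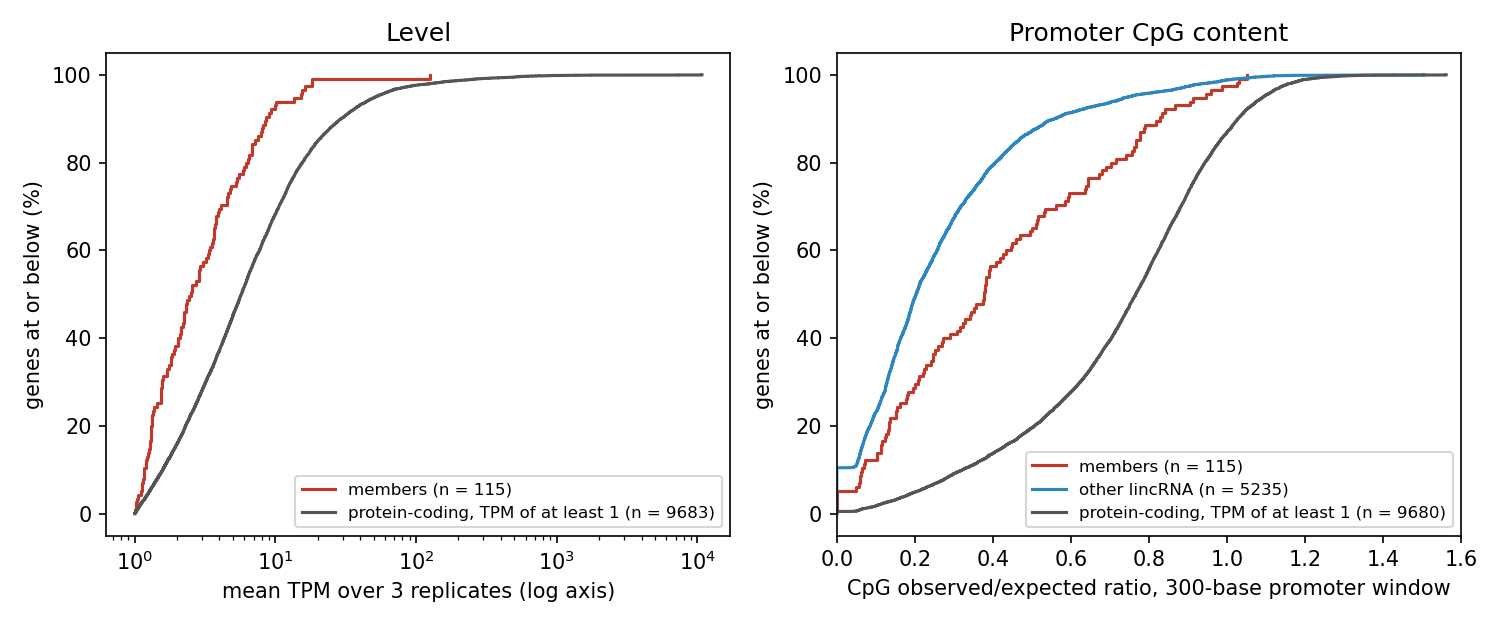
Cumulative share of genes by mean TPM on a log axis (left) and by observed/expected CpG ratio of the 300-base start window (right), for the members, other lincRNA genes and expressed protein-coding genes. The members' curves lie to the left of the protein-coding curve in both panels, with medians of 2.52 against 5.73 TPM and 0.38 against 0.77.

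Short motifs were searched on both strands of the same windows. GGGCGG, the core of the GC box bound by SP factors, was present in 28 members (24.3%), beside 22.7% of all 55139 windows and 61.9% of those of expressed protein-coding genes. TATAAA was present in 14 members (12.2%) and 17.1% of all windows. CACGTG, the E-box bound by MYC and related factors, was present in 5 members (4.35%) and 5.37% of all windows. ATGCAAAT, the octamer bound by POU factors such as OCT4, was present in 6 members (5.22%) and 2.25% of all windows. Those 6 were Gm10451, Gm20939, 2700038G22Rik, Platr15, Gm42743 and Gm32856, named because they are few. A match is a description of the letters and not of binding. GC skew, the excess of G over C on the gene's strand divided by their sum, has been associated with R-loop formation. Over the 500 bases after the start its median was 0.055 in the members, 0.041 in the other lincRNA genes with counts, 0.021 in those without and 0.066 in the expressed protein-coding genes.

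Repeats made up more of the members than of coding genes. The median share of exon sequence masked as repeat was 19.6%, beside 18.03% in the other lincRNA genes with counts, 15.8% in those without and 11.02% in expressed protein-coding genes. The highest shares were in Gm10479 (82.4%), Gm16211 (71.9%) and Eprn (64.6%), and the lowest in Epb41l4aos (0.23%), Gm26532 (3.91%) and Gm48510 (4.53%). The annotated first base lay in a repeat in 27 members (23.5%) and in 7.43% of the protein-coding genes. Among the other lincRNA genes it did so in 20.9% of those with counts and 30.6% of those without, so the members lay between these. Counting any annotated transcript start raised the members' number to 46 (40%). By that count the share was 36.1% in the protein-coding genes, 24.5% in the other lincRNA genes with counts and 32.1% in those without. The members' share was then near that of the protein-coding genes and no longer lay between those of the other lincRNA genes. The members had a median length of 921 nt and a median of 3 exons in the transcript with most exons, and 8 had a single exon. The longest were Gm37494 (10099 nt), 6720427I07Rik (5598 nt) and D930016D06Rik (5450 nt), which RefSeq names Thoc2l and types as protein-coding. Length and level were weakly related in rank (rho of -0.16 across the 115 members). The rule set limits on both, and TPM takes effective length into account, so this rho is a description only.

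A group of 29 genes carries the symbol Platr, given to transcripts associated with pluripotency. Of these, 12 reached a mean TPM of 1, and 7 were members: Platr10, Platr3, Platr4, Platr11, Platr15, Platr27 and Platr7. Platr3 had 8.99, 7.76 and 6.98 TPM. Platr4 had 5.99, 3.37 and 4.42 TPM, Platr11 had 5.29, 4.15 and 2.48 TPM, and Platr15 had 3.04, 2.46 and 1.74 TPM. Platr27 and Platr7 were near the limit, at means of 1.32 and 1.28 TPM. Platr10 was thus above the other 6 in every replicate, while Platr4 and Platr11 overlapped. The 7 had whole counts in every replicate and no stretch shared with another gene, so their values do not rest on divided reads. Platr11 starts 72113 bp from Eomes, a T-box factor of early lineages, which was at 0.95 TPM. Platr3 starts 10104 bp from Plcb4, a phospholipase gene at 9.33 TPM.

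Small RNA hosts formed a second group. In a host gene the mature RNA is cut from the primary transcript or its introns, and the spliced host RNA may have little role of its own. Of 15 Snhg genes, 11 reached a mean TPM of 1 and 3 were members, since others carry another gene type. Snhg6, which holds Snord87, had 9.53, 10.9 and 7.38 TPM. Snhg20 had 8.01, 7.33 and 5.13 TPM. Snhg12 holds Snora44 and overlaps its exons, and Snora44 was listed at a mean of 1276 TPM. Snhg20 in turn overlaps Gm26083, a small Cajal body RNA gene at 144 TPM. Both hosts had counts that were not whole, and those of Snhg6 were whole. Of 30 lincRNA genes that hold an annotated snoRNA gene on the same strand, 4 were members: Snhg12, Snhg6, Epb41l4aos and 2700038G22Rik. Epb41l4aos had 6.52 ± 1.83 TPM and 2700038G22Rik, which holds Snord93, had 3.79 ± 0.93 TPM (SD, n = 3).

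Of 65 lincRNA genes that hold an annotated microRNA gene on the same strand, 7 were members: Gm27000, Snhg20, Mir124a-1hg, 2900076A07Rik, Mir17hg, 6720427I07Rik and E130102H24Rik. Of the 65, 25 had no counts in any replicate. Mir17hg is the primary transcript of the miR-17/92 cluster, whose products promote proliferation, and it had 3.01, 2.61 and 2.08 TPM. 6720427I07Rik holds let-7a-1, let-7d and let-7f-1, whose mature forms accumulate on differentiation and are held back in embryonic stem cells by LIN28, and it had 2.15, 1.93 and 1.34 TPM. The ranges of these hosts overlapped, and Mir17hg was the higher in each replicate. The counts of Mir17hg (277, 168.09 and 134.14) were not all whole, and its exons overlap Mir18, listed at 13.5 TPM. Those of 6720427I07Rik were whole. How far divided reads changed the level of Mir17hg was not tested. Mature microRNAs are shorter than the RNA measured here and have no values. The main mature products of the pair of hosts are printed from RefSeq annotation on GRCm38.p6, with the seed (bases 2 to 8) in capitals, to show which of them share a seed.
mmu-miR-17-5p: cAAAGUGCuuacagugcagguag
mmu-miR-20a-5p: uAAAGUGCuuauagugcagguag
mmu-miR-18a-5p: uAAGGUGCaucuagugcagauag
mmu-miR-19a-3p: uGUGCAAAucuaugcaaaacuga
mmu-miR-19b-3p: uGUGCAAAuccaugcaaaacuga
mmu-miR-92a-3p: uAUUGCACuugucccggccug
mmu-let-7a-5p: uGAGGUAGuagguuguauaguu
mmu-let-7d-5p: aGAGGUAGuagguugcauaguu
mmu-let-7f-5p: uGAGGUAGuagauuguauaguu
In Mir17hg, miR-17-5p and miR-20a-5p share the seed AAAGUGC, miR-19a-3p and miR-19b-3p share GUGCAAA, and miR-18a-5p and miR-92a-3p each have their own. The let-7 products of 6720427I07Rik share GAGGUAG. Mir124a-1hg, the host of the neural miR-124, had 4.97, 3.39 and 3.97 TPM, above Mir17hg in every replicate. 2900076A07Rik, the host of Mir1839, had 4.05, 3.30 and 1.88 TPM, and E130102H24Rik, the host of Mir101a, had 0.92, 1.69 and 1.39 TPM.

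Among lncRNAs with described roles, 38 records were found for the symbols looked up, and 9 of them were members. The symbols were chosen with earlier results of these data known. 2900097C17Rik, known as Norad, binds PUMILIO proteins in human cells and had 8.29, 7.01 and 3.98 TPM. Pvt1, next to Myc, had 3.84, 2.66 and 2.10 TPM, and Myc itself, whose start is 52595 bp away, had a mean of 0.21 TPM. Trp53cor1 (lincRNA-p21) starts 11797 bp from Cdkn1a, the gene of the cell cycle inhibitor p21. Its TPM was 2.13, 1.39 and 1.24, and that of Cdkn1a had a mean of 13.8. Lockd, 8691 bp from Cdkn1b, the gene of the inhibitor p27, had 2.08, 1.75 and 0.75 TPM, against a mean of 6.503 for Cdkn1b. Bvht (Braveheart), described in cardiac commitment, had 2.69, 1.99 and 2.04 TPM. Norad was above the other 4 in every replicate, and the values of Pvt1, Trp53cor1, Lockd and Bvht overlapped.

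Protein-coding neighbours of the members were often expressed, though few started close by on the opposite strand. The start nearest to a member's own lay at a median distance of 33481 bp, and for 73 of 115 (63.5%) that nearest coding gene was itself at 1 TPM or more. The share was 57.5% in the 1149 other lincRNA genes with counts, 36.7% in the 4086 without and 61.9% in expressed protein-coding genes. Across members the level and that of the nearest protein-coding gene were not related in rank (rho of -0.086). A protein-coding start within 1000 bp on the opposite strand, called head-to-head here, was found for 4 members (3.48%). It was found for 12.2% of the other lincRNA genes with counts, for 2.81% of those without, and for 18.5% of expressed protein-coding genes. Close starts on the same strand were not counted. Among these, 1300002E11Rik starts 28 bp from Map3k13 and Gm42743 starts 31 bp from Hist2h2bb.

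The 4 head-to-head members all had a CpG ratio of at least 0.6. Gm14230 starts 115 bp from Tgif2, a homeobox repressor, and had 5.44, 6.04 and 4.33 TPM against 10.5, 8.98 and 4.24 for Tgif2. The ranges overlapped, with the coding gene higher in replicates 1 and 2. 5930412G12Rik, named Fzd10os in RefSeq, starts 151 bp from Fzd10, a WNT receptor, and had 2.10, 2.40 and 1.22 TPM against 6.92, 4.97 and 5.32. 5031425E22Rik starts 172 bp from Kmt2e, a chromatin regulator, and had 1.27, 0.86 and 0.98 TPM against 4.43, 2.73 and 2.01. In both pairs the coding gene was higher in every replicate, with no overlap. AI480526 starts 527 bp from Setd1b, an H3K4 methyltransferase gene, and had 2.29, 1.16 and 0.88 TPM against 0.74, 0.64 and 0.14. There the noncoding member was higher in every replicate, and Setd1b was under 1 TPM.

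Some members could not be separated from other genes by sequence. RSEM gives estimated counts that are not whole where a read fits several genes. Counts that differed from a whole number by more than 0.005 in some replicate were found in 41 of 115 members (35.7%). The share was 16.8% in expressed protein-coding genes. It was 4.09% in the other lincRNA genes with counts, whose median of 0.05 TPM leaves few reads to divide. A stretch of at least 200 nt at 95% identity or more with a gene elsewhere was found in 35 members, and 30 of these had such counts. Among the 80 members without such a stretch, 11 had them. For 18 members the similar gene was, or included, another member. RefSeq matched 76 of the 115 by symbol or synonym and typed 54 as lncRNA, 17 as protein-coding, 3 as pseudogenes and 2 as transcribed pseudogenes.

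Gm27000 (chrX:88759471-88760312, minus strand), the only member on that chromosome, was almost the same sequence as part of Meg3, an imprinted noncoding RNA of chromosome 12. All 842 nt of its single exon aligned to Meg3 without gaps, and 841 were identical. The mismatch is A162G, with the base of Gm27000 first and positions counted from 1 at the 5′ end of its transcript. The 61 bases around it are shown with that position in capitals.
Gm27000: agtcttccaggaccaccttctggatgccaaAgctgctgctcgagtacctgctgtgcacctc
Meg3: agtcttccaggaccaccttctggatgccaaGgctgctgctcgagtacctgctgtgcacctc
Gm27000 had 16.2, 7.74 and 5.95 TPM and Meg3 had 40.9, 32.2 and 21.2 TPM. Both were highest in replicate 1 and lowest in replicate 3. The counts of Gm27000 were 309.39, 102.07 and 80.11, and a read that covers position 162 is needed to tell the transcripts apart within the shared stretch. Whether the locus on chromosome X was transcribed was not tested.

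Other members resembled protein-coding genes. Gm4349 shared 645 nt at 99.4% identity with Setdb1, an H3K9 methyltransferase gene, and had 1.31 ± 0.54 TPM against a mean of 10.1 TPM. Gm48222 shared 464 nt at 99.8% with Gm10324 (1.27 ± 0.85 against 15.3 TPM). Gm49797 shared 2015 nt at 96.6% with Cd2ap, an adaptor protein gene (1.23 ± 0.86 against 13.1 TPM), and its counts were whole. Gm7125 shared 279 nt at 95.3% with Hmgn2, a nucleosome-binding protein gene (2.31 ± 0.70 against 14.7 TPM; SD, n = 3 for each member). In these 4 pairs the member was the lower by mean TPM. Over all 12 members whose longest shared stretch was with a protein-coding gene, the member was the lower in 8 and the higher in 4, among the latter Gm46430 (8.01 TPM, against 1.21 for D10Wsu102e) and Gm40977 (7.14 TPM, against 3.28 for Zfp934). Norad (2900097C17Rik) shared 2537 nt at 99.2% with another member, Gm7292, which had 4.61, 3.51 and 2.21 TPM and stayed below it in every replicate.

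**Figure D3:**
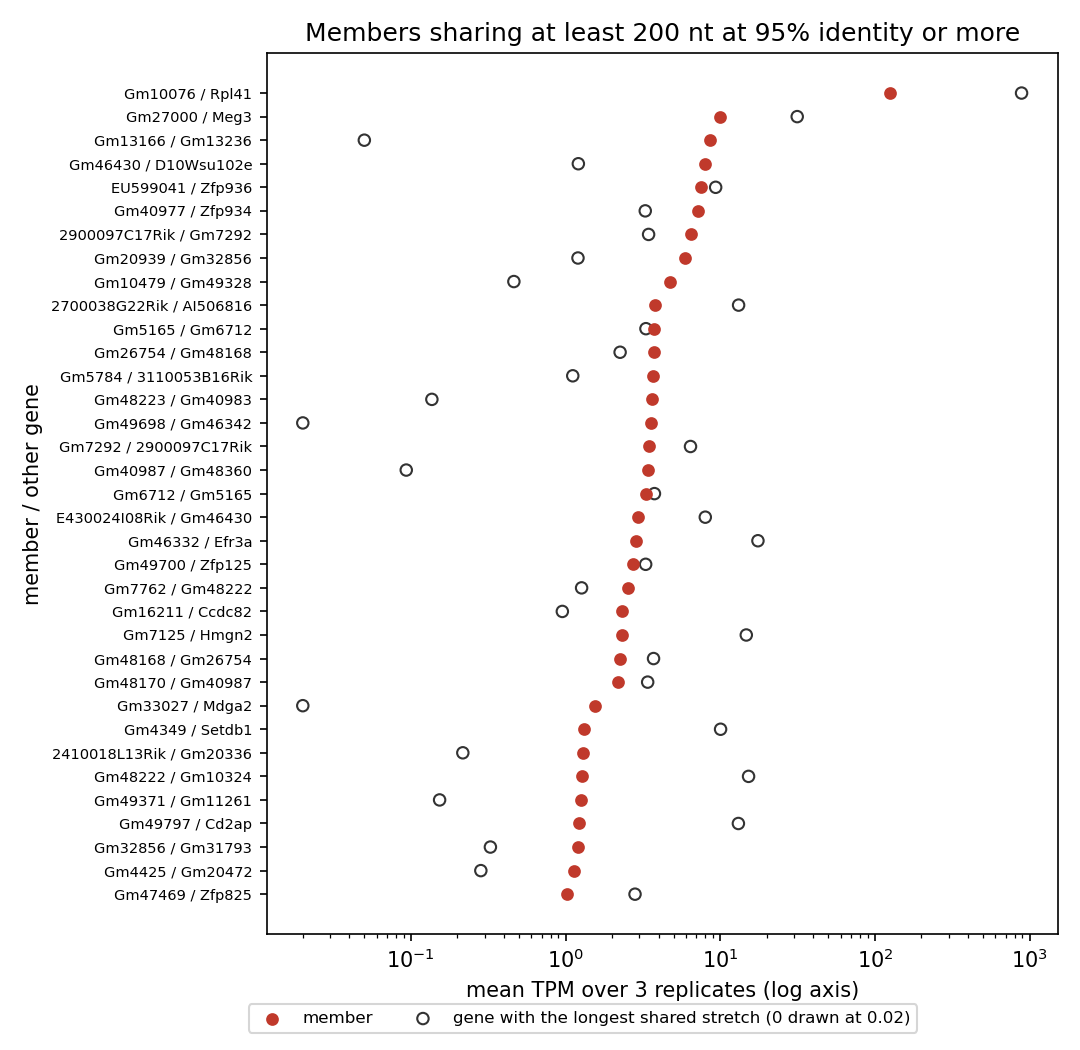
Mean TPM over 3 replicates, on a log axis, of the 35 members that share a stretch with another gene (filled) and of the gene with the longest such stretch (open); a value of 0 is drawn at 0.02. Gm10076 at 126 TPM lies below Rpl41 at 888 TPM, and the partners range from 0 upward.

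Exons of 11 members (9.57%) overlapped exons of another gene at 1 TPM or more, 9 on the same strand and 2 on the opposite strand. The share was 3.74% in the other lincRNA genes with counts, 0.73% in those without and 16.5% in expressed protein-coding genes. Besides those of Snhg12 and Snhg20, the most abundant overlapping genes were Hist2h2bb (572 TPM) for Gm42743, Mphosph8 (20.2 TPM) for Gm16973 on the opposite strand, and Zfp984 (17.4 TPM) for Gm20707. The strand setting of the counting is not given in the sources used here, so reads of Gm16973 and Mphosph8, the gene of a heterochromatin protein, cannot be told apart with certainty. With members of whole counts alone the share was 4.05%.

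Members lay close together in several places, which were chosen after their values were seen. Runs of at least 3 members with neighbouring starts within 1000000 bp occurred in 6 places. The largest, chr13:65241753-66451277, held 8 members of 13 lincRNA genes there, from 1.27 to 3.71 TPM, and 7 of the 8 had counts that were not whole. The next, chr12:19387809-20637948, held 6 members, 5 of them with such counts. On chr13:74434781-74617945 and chr17:16951539-17319511 all 3 members had them, and the protein-coding genes there were Zfp825 in the first run and Zfp960 and Zfp97 in the second, all named for zinc fingers. In these 4 runs the median share of repeat in the members' exons was 42.8%, 43.8%, 51.1% and 50.4%, above the 19.6% of all members. The run on chromosome 2 held 2900097C17Rik, Gm14230 and Platr27 among 21 protein-coding genes. On chromosome 3 the members stood alone. At chr3:41477577-41528474 Gm40040 had 4.96, 5.95 and 5.22 TPM, Platr4 had 5.99, 3.37 and 4.42 TPM and 2400006E01Rik had 6.62, 4.24 and 2.75 TPM. These 3 were on the same strand, had whole counts, overlapped in level and shared the interval with no protein-coding gene. The nearest coding start was that of Jade1, 27257 bp from the start of 2400006E01Rik, at 26.3 TPM.

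**Figure D4:**
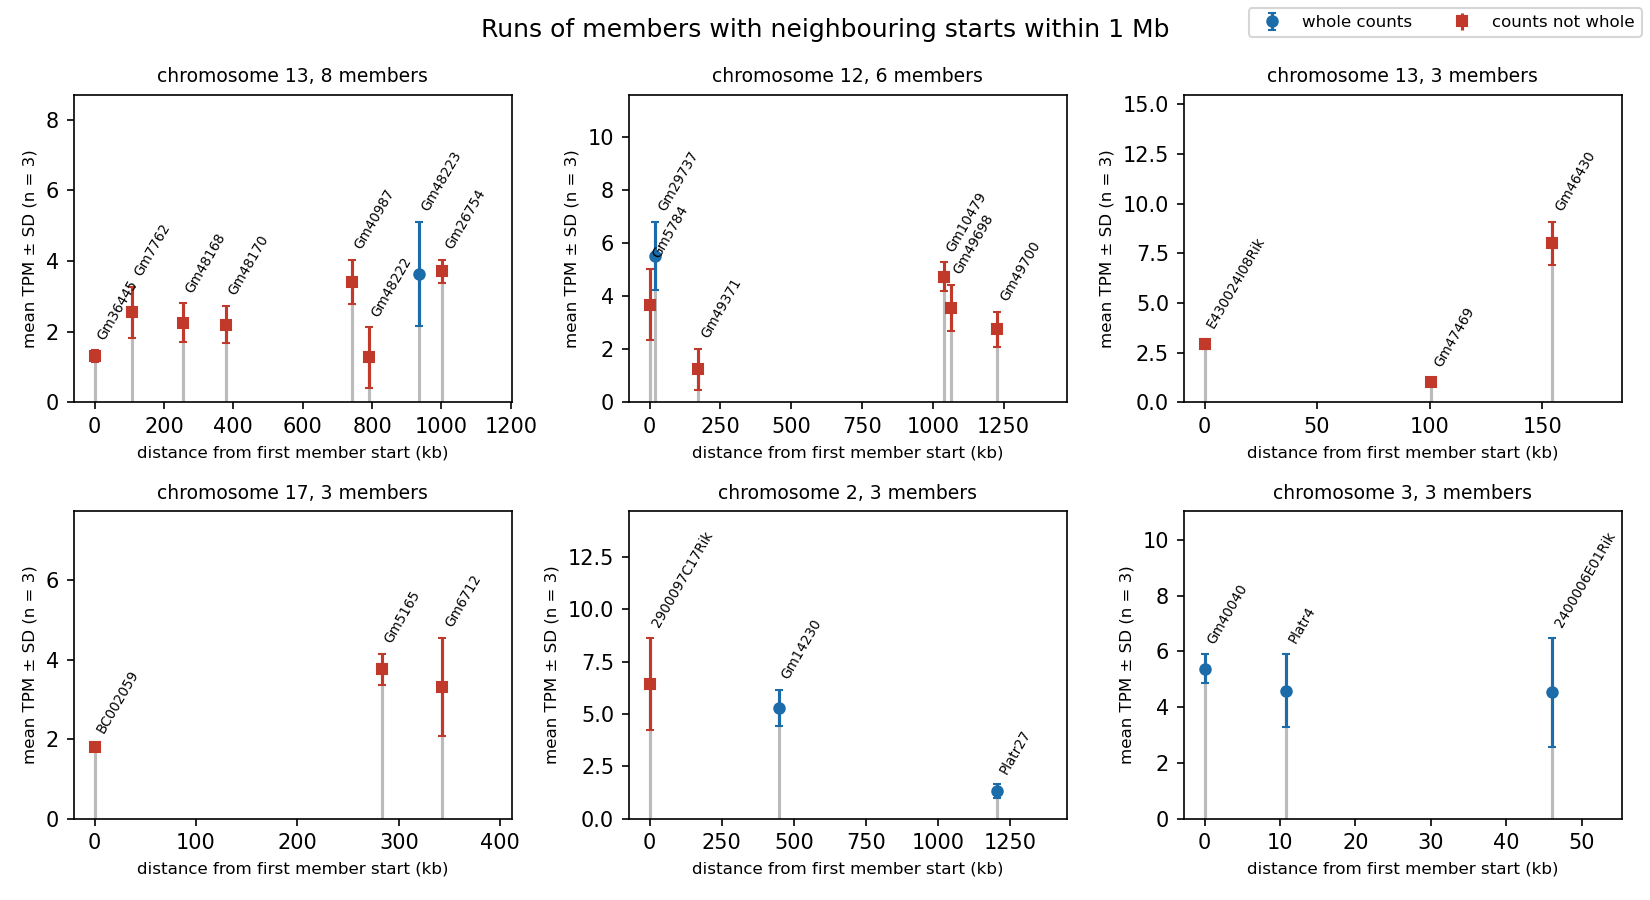
Mean TPM with SD (n = 3) of members in the 6 runs, by distance of the start from the first member's in kb; squares mark members whose counts are not whole. The run on chromosome 3 has whole counts throughout, while 7 of 8 members of the largest run on chromosome 13 do not.

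The last question was whether the spread of any member over the replicates exceeded that of other genes with similar counts. On the TPM scale 86 of 115 members were highest in replicate 1 and 85 were lowest in replicate 3. The same held for 86.5% and 79.4% of expressed protein-coding genes. On CPM scaled by TMM (trimmed mean of M values) the shares were 39.6% and 40.6% of the 96 members that passed a filter on low counts. The common order on the TPM scale was therefore shared with most expressed protein-coding genes. It was not that of the whole library, since TPM has a fixed total. The abundant short RNAs typed as ribozymes were highest in replicate 3: Rmrp had 22303, 19323 and 26714 TPM, and Rpph1 had 13245, 12379 and 19154 TPM. The coefficient of variation of TPM, SD over mean, had a median of 0.27 in the members and 0.24 in expressed protein-coding genes. Its largest values were in Gm38324 (0.80), Gm44983 (0.76), A530017D24Rik (0.74), Gm49797 (0.70) and Gm48222 (0.67). Gm38324 and Gm44983 had 3 counts in their lowest replicate.

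In edgeR's goodness-of-fit test against the trended dispersion, 96 members passed the filter on low counts and 19 did not. Of the 96, 2 (2.08%) had a Benjamini-Hochberg adjusted p under 0.05 over all 12577 genes tested, beside 1.84% of all genes. The share is near the background and is no result about the members. At an unadjusted p under 0.05 there were 9 members (9.38%), beside 6.96% of all genes. Gm42743 (chr3:96269721-96279001, plus strand) was called (adjusted p = 0.0068, edgeR). Its counts were 51.5, 46.95 and 85.28, or 4.36, 7.08 and 16.01 TMM-scaled CPM, so it was highest in replicate 3. It lies on the same strand as Hist2h2bb, a histone H2B gene, and overlaps its exons. A530017D24Rik (chr11:61864568-61868058, minus strand) was the other (adjusted p = 0.013, edgeR). It had 125, 56 and 12 counts, or 10.5, 8.44 and 2.26 TMM-scaled CPM, lowest in replicate 3, with whole counts and no exon shared with an expressed gene. Without replicate 1, 2 or 3 neither was called. With replicate 3 left out the test called Gm10076 alone, beside 0.683% of all genes. With replicate 1 or replicate 2 left out it called no member, beside 0.709% and 0.474% of all genes, while 5 members had an unadjusted p under 0.05 in each.

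**Figure D5:**
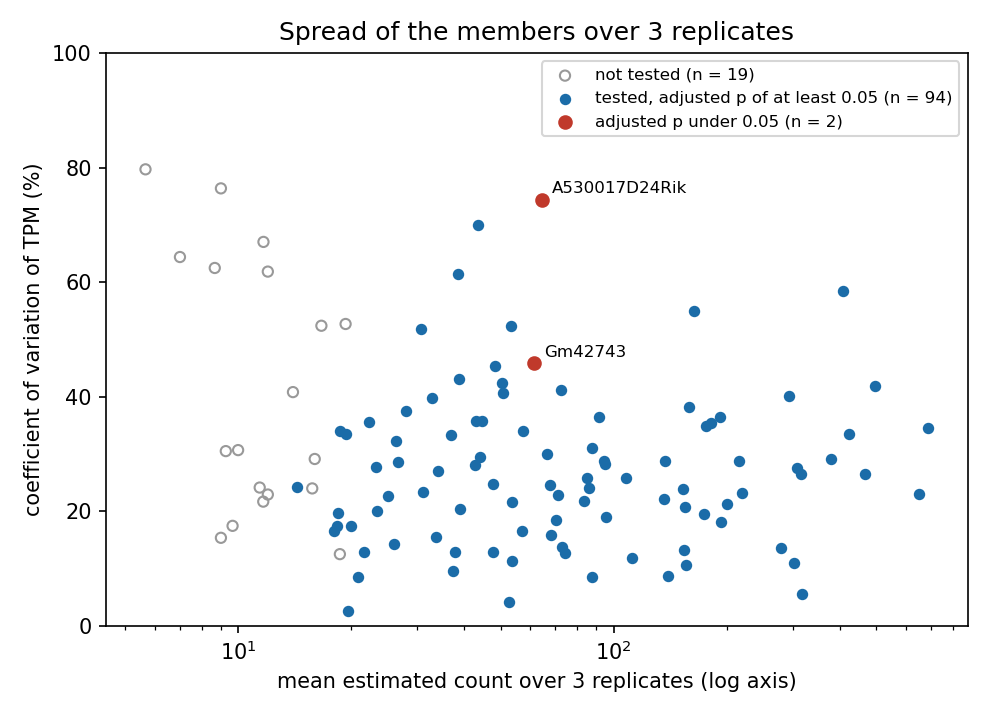
Coefficient of variation of TPM (%) against the mean estimated count on a log axis for the 115 members over 3 replicates; open points were not tested. The called members, A530017D24Rik and Gm42743, are marked, and the untested members lie at low counts.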

How the data were processed

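RNA was measured in 3 replicates, mapped to groups by their titles. Per the labels' protocols, strand-preserving libraries were prepared from Trizol-extracted total RNA after DNase digestion and removal of rRNA. The submitters' processing notes name STAR, RSEM, Bowtie2, SAMtools, deepTools and mm10 without roles or versions; the aligner of these tables, their annotation release and strand setting are not given in the sources used here. Per the file headers, the authors deposited for each gene an estimated (expected) count, TPM, FPKM, length and effective length, in RSEM's gene-level columns. The expected counts are not normalized, TPM was scaled by the authors to a fixed total per library, and the deposited FPKM was used as an alternative only. Division of reads among similar genes, and a TPM total shared with short RNAs, affect every level here.

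Gene types, names and positions came from GENCODE vM21 (GRCm38) by Ensembl ID; 260 of 55487 IDs had no match. Sequence and repeat masking came from RefSeq GRCm38.p6. Estimated counts were rounded for edgeR 4.0.16 in R 4.3.3 (TMM, filterByExpr, intercept-only design, trended dispersion, goodness-of-fit test, Benjamini-Hochberg adjustment). The test was tried on counts simulated at a constant dispersion, with changes placed only in genes of higher counts. That trial does not cover members with low counts. Similar stretches were found with BLAST 2.17.0 on transcripts (at least 200 nt at 95% identity). Tables and plots were made in Python 3.11.15 (pandas 2.3.3, numpy 2.4.6, matplotlib 3.10.9). Alternatives changed the TPM limit, scale, distance, filter, normalization (DESeq2 1.42.0 size factors) and replicates.

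Members and lists were chosen with earlier results of these data known. Genes named are the 10 most abundant members, those called, those at the limits, members of the name and annotation lists, head-to-head pairs, and the extremes of overlap, repeat, length and variation; any other was chosen after its values were seen. Of the Mir host symbols, 2 of 10 genes were members (Mir17hg and Mir124a-1hg).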

Additional observations from a re-analysis of the deposited data

How the results depend on the processing

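Of 46 alternatives to 7 results, 25 left the value within its spread or within 1.5 times of the count, and 21 moved it. The member count of 115 became 190 at a TPM of at least 0.5, 71 at 2, 233 at a CPM of at least 1, 216 with TPM rescaled without short genes and 74 with whole counts only, and 107 to 122 with a replicate left out. The median of 2.52 TPM became 1.30 and 3.97 at limits of 0.5 and 2, 7.06 in FPKM and 6.90 on the rescaled TPM, with 2.38 to 2.75 when a replicate was left out. The share of the 10 most abundant members was 37.9% in counts and 29.99% without Gm10076, and 42.5% to 46.2% with a replicate left out. Starts in a repeat were 16.5% by a window at least 50% masked and 40% by any transcript. Overlap with a gene was 27.8% for any annotated gene, 5.22% for genes of at least 10 TPM, 17.4% by gene body and 4.05% with whole counts only. Called members numbered 0 to 1 with a replicate left out and 1 with whole counts only; other normalization, filter, dispersion and length settings called the same 2. The cause of these moves was not tested beyond the settings themselves. The settings with whole counts only, without Gm10076 and with 1700020I14Rik kept were chosen after seeing the data. No paired analysis was possible because 1 group, RNA-seq, was analysed, so no groups could be paired by replicate number. Depth limits the 18 members with fewer than 10 counts in some replicate.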
